A study of Mus musculus with 6 samples.

Results

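The mast cell genes described here are 10 genes chosen by symbol, Cpa3, Cma1, Mcpt4, Tpsb2, Tpsab1, Kit, Ms4a2, Fcer1a, Mrgprb2 and Hdc, and all 10 were found among the 55291 genes of the table. The comparison was made in shaved skin of the back, between TSK (tight skin) animals and their WT (wild-type) littermates, with 3 libraries in each group, each from 1 mouse. In TSK mice a part of Fbn1, which encodes fibrillin 1 of the microfibrils, is duplicated within the gene, and the mutation was kept by backcrossing to C57BL/6. The labels give C57BL/6 as the strain and 6 to 8 weeks as the age of both groups. They do not give the zygosity of the duplication. The study states that homozygous TSK mice do not live to birth and that heterozygotes are viable, so the TSK mice here were heterozygous. The question of the comparison was how gene expression differs between TSK and WT skin.

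Mast cells are resident immune cells of connective tissue, frequent in dermis around vessels and nerves. They mature in the tissue under stem cell factor, which signals through the receptor KIT, and they store histamine, proteoglycan and large amounts of a few proteases in granules that are released on activation through the IgE receptor or through a receptor for basic peptides. In mice, the connective tissue type makes chymases, tryptase and carboxypeptidase A3, whereas the mucosal type makes other chymases, and basophils share the IgE receptor but carry a protease of their own.

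Each library held between 17561453 and 19219814 counts, so that 1 count was worth 0.052 to 0.0569 CPM (counts per 1000000 counts of the library), and 3 counts, taken as the limit that a count of 0 allows, were worth 0.156 to 0.171 CPM. These limits cover counting error only. Fbn1 checked the labels: it lay at 267, 289 and 262 CPM in libraries WT 1 to 3, against 1538, 2284 and 2007 CPM in TSK 1 to 3. Its log2 fold change, TSK minus WT, was 2.54 (SE 0.22, adjusted p = 0.00327 by edgeR's quasi-likelihood test with Benjamini-Hochberg adjustment). The labels call the mice female and the study's methods call them male. In all 6 libraries 4 Y-linked genes had 27 to 72.8 CPM, which goes with the sex given in the methods and not with the labels. A list of 8 adult skeletal muscle genes, which leaves out other muscle genes, took 11.9% to 19.7% of the counts, with the highest shares in WT 2 and WT 3.

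All members were scarce in whole skin. Levels per kb of the main annotated transcript, the scale on which genes can be set side by side, were highest in WT for Mrgprb2 (1.45 CPM per kb), Tpsb2 (1.36) and Mcpt4 (1.3), followed by Cma1 (1.05), Cpa3 (0.646), Hdc (0.585) and Kit (0.486). In TSK the order was Mcpt4 (4.61 CPM per kb), Tpsb2 (3.58), Cma1 (2.61), Cpa3 (1.73), Mrgprb2 (1.26), Kit (1.19) and Hdc (0.937). Tpsab1, Ms4a2 and Fcer1a stood at or below 0.182 CPM per kb in both groups. The 7 other members had at least 16 counts in every library and were tested. Of the markers of related cells, Mcpt8, the protease of basophils, and Mcpt2, a protease of mucosal mast cells, had 0 counts in all 6 libraries, Mcpt1 had 3 counts in TSK 3 and 0 elsewhere, and Prss34 had at most 3 counts.

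**Figure D1:**
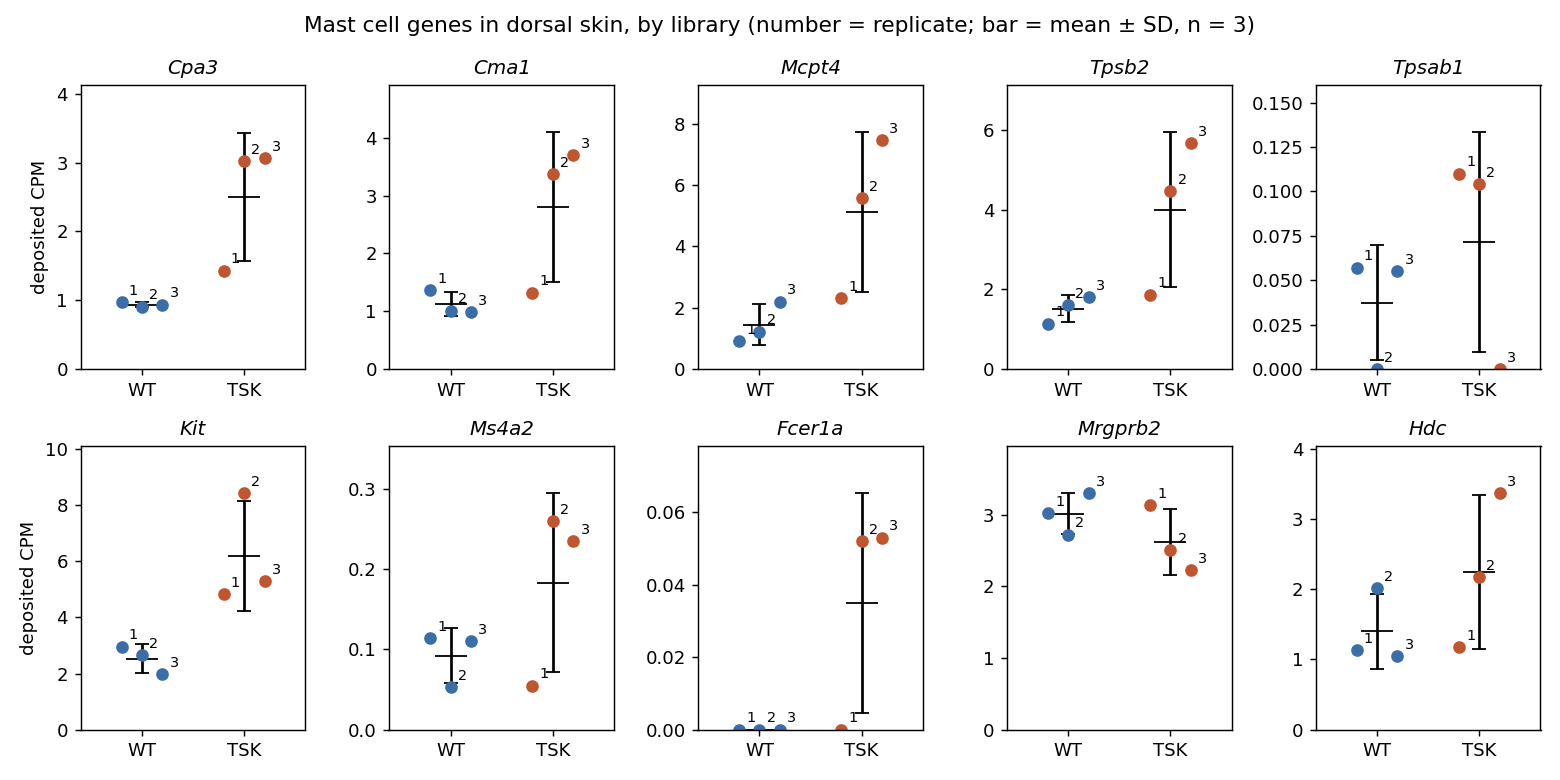
Each panel plots the deposited CPM of 1 member on its own linear axis from 0. Points are libraries (WT blue, TSK orange, with replicate numbers), and bars are the mean ± SD of 3 libraries. Cpa3, Mcpt4, Tpsb2 and Kit had no overlap between groups on this scale, TSK 1 lay nearest to WT for the proteases, and Mrgprb2 had its lowest value, 2.23 CPM, in TSK 3.

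None of the 7 tested members passed an adjusted p of 0.05 in edgeR, where 3.39% of the 19971 tested genes passed in either direction and 2.71% passed as higher in TSK. None passed, in edgeR or in any alternative run, the stricter thresholds of the study, a fold above 2.5 and an adjusted p under 0.01, which 0.29% of genes passed. At an unadjusted p below 0.05, Cpa3, Cma1, Mcpt4, Tpsb2 and Kit (5 of 7) were higher in TSK, a share that was 12.1% over all tested genes. With DESeq2 on the same counts, Mcpt4 and Kit (2 of 7) were higher at an adjusted p below 0.05, against 5.5% of all genes that it tested. The fitted log2 fold change was above 0 for 6 tested members and below 0 for Mrgprb2, and the median over the 7 was 1.04, beside -0.03 over all tested genes. In bulk skin, a difference in the number of mast cells and a difference in RNA per cell cannot be told apart.

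The granule proteases are described first. Cpa3 encodes carboxypeptidase A3, a granule exopeptidase, and lies at chr3:20215620-20242181 on the minus strand (mm10). It had 17 counts in every WT library and 26, 58 and 58 counts in TSK 1 to 3, or 0.968, 0.905 and 0.935 CPM against 1.43, 3.02 and 3.07 CPM. The 3 WT libraries were nearly equal and all TSK libraries lay above them, with TSK 1 well below the other TSK libraries. The means were 0.936 ± 0.0316 and 2.51 ± 0.933 CPM (SD, n = 3), and the log2 fold change was 1.13 (SE 0.34, 95% interval 0.36 to 1.90, adjusted p = 0.107 by edgeR).

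Mcpt4 encodes the main chymase of mouse connective tissue mast cells and lies at chr14:56059629-56062313, minus strand. It had 0.911, 1.22 and 2.2 CPM in libraries WT 1 to 3, against 2.3, 5.57 and 7.47 CPM in TSK 1 to 3. The groups did not overlap in deposited CPM, although WT 3 and TSK 1 nearly met, and TSK 3 was the highest. After TMM scaling they overlapped, with WT reaching 2.48 CPM and TSK starting at 2.18 CPM. Its log2 fold change was the greatest of the tested members at 1.51 (SE 0.47, 95% interval 0.44 to 2.59), with an adjusted p of 0.12 by edgeR and means of 1.44 ± 0.672 and 5.11 ± 2.62 CPM (SD, n = 3).

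Cma1, at chr14:55941451-55944675 on the minus strand, encodes mast cell chymase 1 and belongs to the same protease cluster as Mcpt4. Its values were 1.37, 1.01 and 0.99 CPM in libraries WT 1 to 3, against 1.32, 3.38 and 3.71 CPM in TSK 1 to 3. TSK 1 lay inside the WT range, and TSK 2 and TSK 3 lay above it. The log2 fold change was 1.04 (SE 0.38, 95% interval 0.17 to 1.91, adjusted p = 0.177 by edgeR). Without TSK 1 it was 1.36, with an adjusted p of 0.0485.

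Tpsb2 encodes a tryptase, a trypsin-like granule protease, and lies at chr17:25366305-25369098 on the plus strand. It had 1.14, 1.6 and 1.81 CPM in libraries WT 1 to 3, against 1.87, 4.47 and 5.67 CPM in TSK 1 to 3. The lowest TSK library was just above the highest WT library in deposited CPM. After TMM scaling the groups overlapped, with WT reaching 2.05 CPM and TSK starting at 1.76 CPM. The log2 fold change was 1.09 (SE 0.41, 95% interval 0.16 to 2.03, adjusted p = 0.185 by edgeR). Tpsab1, the neighbouring tryptase gene at chr17:25343245-25345562 on the minus strand, had 1, 0 and 1 counts in libraries WT 1 to 3, against 2, 2 and 0 counts in TSK 1 to 3, within the limit of 3 counts in each library, and was not tested.

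Reads of 50 bases could be shared between related proteases, so the sequences were compared. The coding sequences of Tpsb2 and Tpsab1 were 76.1% identical, and their longest identical run, printed here because it sets whether a read can tell them apart, was 39 bases:
Tpsb2 and Tpsab1, spliced, chr17:25366888-25367046 (+) and chr17:25344916-25345087 (-): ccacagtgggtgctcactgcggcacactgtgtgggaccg
No window of 50 bases was shared between them or with another annotated transcript. Cma1 and Mcpt4 were 67.6% identical, with a longest identical run of 27 bases. Instead, 5.38% of the 50-base windows of Cma1 matched Gm48934 and 5.48% of those of Mcpt4 matched Cma2 or Mcpt9, and counts from these windows are uncertain. Cma2 had at most 1 count, and Mcpt9 at most 4 counts, in any library. With Cma1 and Mcpt4 summed to 1 gene the log2 fold change was 1.33 (adjusted p = 0.0993 by edgeR), and with both tryptase genes summed it was 1.09 (adjusted p = 0.173).

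Of the 4 surface receptor genes, Kit and Mrgprb2 were tested. Kit encodes the receptor for stem cell factor, needed for the growth and survival of mast cells and also made by melanocytes, and lies at chr5:75574916-75656722 on the plus strand. It had 2.96, 2.66 and 1.98 CPM in libraries WT 1 to 3, against 4.84, 8.43 and 5.3 CPM in TSK 1 to 3. Every TSK library lay above every WT library, also after TMM scaling, and TSK 2 was the highest, in contrast with the proteases. The log2 fold change was 1.01 (SE 0.27, 95% interval 0.40 to 1.62, adjusted p = 0.0801 by edgeR), with means of 2.53 ± 0.503 and 6.19 ± 1.95 CPM (SD, n = 3).

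Mrgprb2 encodes the receptor through which basic peptides and several drugs activate mouse connective tissue mast cells, and lies at chr7:48550965-48558086 on the minus strand. It had 3.02, 2.72 and 3.3 CPM in libraries WT 1 to 3, against 3.13, 2.5 and 2.23 CPM in TSK 1 to 3. The groups overlapped, and TSK 3, the library with the most protease counts, had the least Mrgprb2. The log2 fold change was -0.48 (SE 0.24, 95% interval -1.01 to 0.06, adjusted p = 0.305 by edgeR), and it was below 0 in all 16 alternatives, from -0.65 to -0.15.

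The alpha and beta chains of the IgE receptor were near the limit of detection. Ms4a2, at chr19:11615523-11623719 on the minus strand, encodes the beta chain and had 2, 1 and 2 counts in libraries WT 1 to 3, against 1, 5 and 4 counts in TSK 1 to 3. Summed by group, 10 counts in TSK against 5 in WT gave a ratio per total count of 1.94, with an exact 95% counting interval of 0.604 to 7.23. Fcer1a, at chr1:173221284-173227214 on the minus strand, encodes the alpha chain that binds IgE. It had 0 counts in libraries WT 1 to 3 and in TSK 1, and 1 count each in TSK 2 and TSK 3, so no ratio is given. The interval of Ms4a2 includes 1, and it bounds the ratio for counting error only.

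Hdc encodes histidine decarboxylase, the enzyme that makes histamine. It lies at chr2:126593667-126619299 on the minus strand, 1.09 Mb from Fbn1 on the same chromosome. Its values were 1.13, 2.02 and 1.05 CPM in libraries WT 1 to 3, against 1.18, 2.17 and 3.37 CPM in TSK 1 to 3. The groups overlapped, with WT 2 above TSK 1 and TSK 3 above the rest. The log2 fold change was 0.37 (SE 0.44, 95% interval -0.65 to 1.38, adjusted p = 0.702 by edgeR), and -0.04 without TSK 3.

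**Figure D2:**
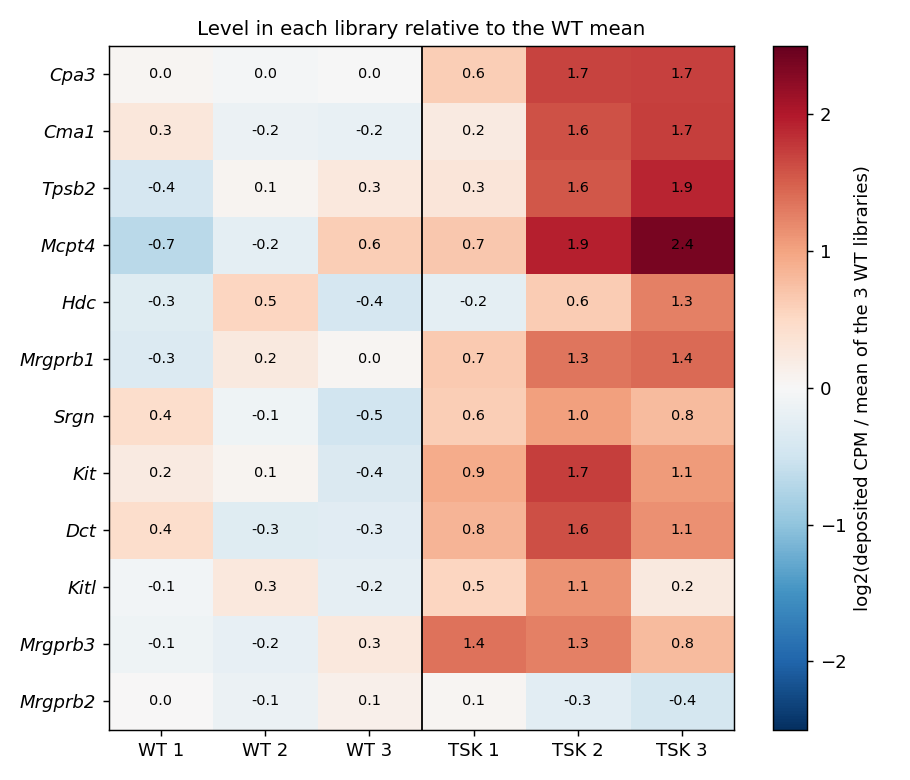
Rows are members and other named genes, columns are the 6 libraries, and colour and number give log2 of the deposited CPM over the mean of the 3 WT libraries. TSK 2 and TSK 3 stand out for the 4 proteases, TSK 2 for Kit and the melanocyte gene Dct, and no TSK library for Mrgprb2.

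The TSK libraries differed among themselves. TSK 1 was the lowest TSK library for 6 of the 7 tested members, and TSK 3 was the highest for 5 (Cpa3, Cma1, Mcpt4, Tpsb2 and Hdc). On deposited CPM, with no scaling between libraries, TSK 1 was compared with the WT mean. It held 1.53 times as much Cpa3, 1.18 times as much Cma1, 1.59 times as much Mcpt4 and 1.23 times as much Tpsb2. In TSK 3 the corresponding ratios were 3.28, 3.31, 5.17 and 3.74. For Kit the ratios were 1.91, 3.33 and 2.09 in TSK 1 to 3. After TMM scaling, TSK 1 lay inside the WT range for Cma1 (1.24 CPM against 1.12 to 1.34) and Tpsb2 (1.76 against 1.11 to 2.05). The same held for Mcpt4 (2.18 against 0.89 to 2.48), while TSK 1 lay above WT for Cpa3 (1.35 against 0.946 to 1.1). On the deposited CPM scale 4 of the 7 tested members (Cpa3, Mcpt4, Tpsb2 and Kit) were higher in TSK without overlap, against 29.1% of all tested genes. After TMM scaling this held for 2 (Cpa3 and Kit), against 14.1% of all tested genes.

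Ratios between genes of 1 library do not depend on scaling between libraries, and gene length cancels when a ratio is compared across libraries. The summed counts of Cpa3, Cma1, Mcpt4 and Tpsb2 were 77, 89 and 108 in libraries WT 1 to 3, against 126, 316 and 376 in TSK 1 to 3. Per count of Mrgprb2 the sum was 1.45, 1.75 and 1.8 in WT and 2.21, 6.58 and 8.95 in TSK, with no overlap between the groups. These genes were combined after their values were seen, so the ratio is given with no test. Kit per protease count was 0.675, 0.562 and 0.333 in WT and 0.7, 0.513 and 0.266 in TSK, and the ranges overlapped. Hdc per protease count was 0.258, 0.426 and 0.176 in WT and 0.171, 0.132 and 0.169 in TSK, where every TSK library lay below every WT library, though TSK 1 and WT 3 nearly met.

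**Figure D3:**
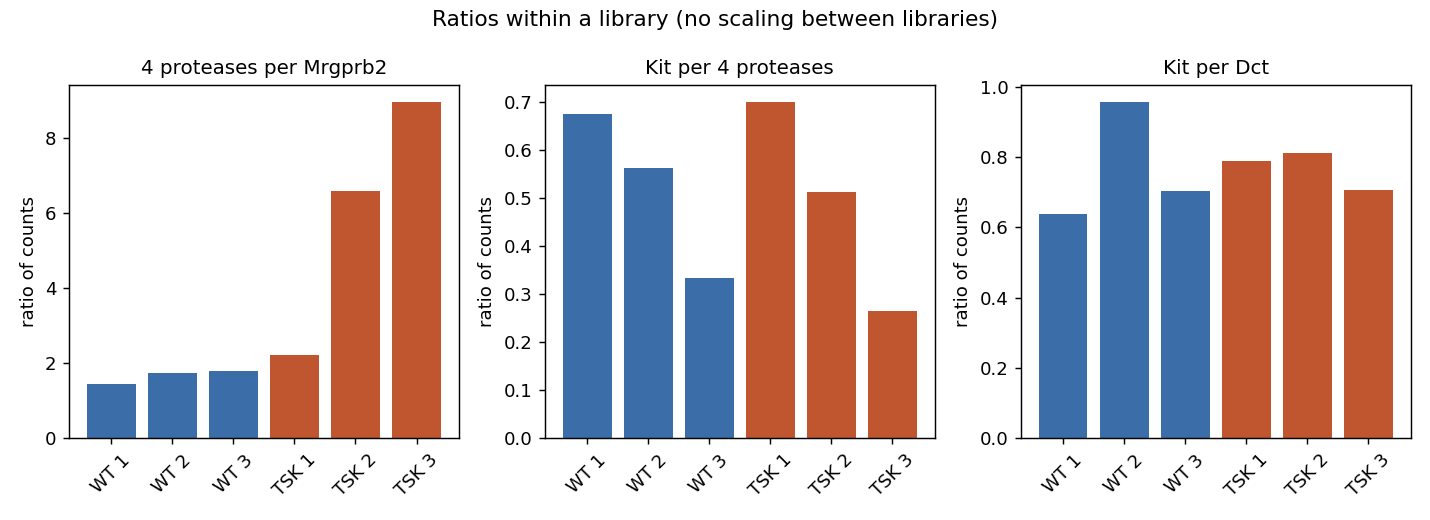
Bars from 0 give ratios of counts within each of the 6 libraries (WT blue, TSK orange): the 4 summed proteases per Mrgprb2, Kit per the 4 summed proteases, and Kit per Dct. The first ratio lay between 1.45 and 1.8 in WT and reached 8.95 in TSK 3, and the other ratios overlapped between the groups.

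Kit is also made by melanocytes, so their markers are given beside it. Of the 6 melanocyte markers 5 were tested, 0 passed an adjusted p of 0.05 in edgeR and 3 (Dct, Tyrp1 and Pmel) were higher at an unadjusted p below 0.05. Tyr, the gene for tyrosinase, had a fitted log2 fold change below 0 (-0.10, SE 0.27, adjusted p = 0.88) with overlapping groups, and Sox10, a transcription factor, had 4.67 CPM in WT 1, above TSK 1 and TSK 2 (0.50, SE 0.31, adjusted p = 0.408). The summed level of the 6 was 7.22 to 12.5 CPM in WT and 14.9 to 22 CPM in TSK, again with TSK 2 highest, and none of the 6 was at 0 throughout. Dct, an enzyme of melanin synthesis that was chosen after its values were seen, had 4.63, 2.78 and 2.82 CPM in libraries WT 1 to 3, against 6.14, 10.4 and 7.52 CPM in TSK 1 to 3 (log2 fold change 0.98, SE 0.24, adjusted p = 0.0669 by edgeR). Kit per Dct was 0.639, 0.957 and 0.703 in WT and 0.788, 0.81 and 0.705 in TSK, so that the ratio overlapped between the groups. The part of melanocytes in the Kit result was not tested.

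Markers of other cells of skin were counted in the same way, and their shares can be read against the 2.71% of all tested genes that passed as higher and the 12.1% that were higher at an unadjusted p below 0.05. Of 8 macrophage markers, all tested, 0 passed an adjusted p of 0.05 in edgeR and 6 were higher at an unadjusted p below 0.05, with sums of 198 to 269 CPM in WT and 345 to 1006 CPM in TSK, highest in TSK 3. All 8 had fitted log2 fold changes above 0, with a median of 0.99. Among them, Cd68 had a log2 fold change of 0.04 with an adjusted p of 0.968, and Adgre1 one of 0.23 with an adjusted p of 0.784. Of 8 fibroblast markers 2 rose in TSK (Dpt and Thy1) and 6 were higher at an unadjusted p below 0.05. All 8 had fitted fold changes above 0 (median log2 fold change 1.03). Their sums (6398 to 9704 CPM in WT and 20516 to 47524 CPM in TSK) were in separate ranges. Most of each sum came from Col1a1, Col1a2 and Col3a1, which held 2511, 1406 and 2267 CPM in WT 1. Pdgfra had a log2 fold change of 0.52 (adjusted p = 0.388 by edgeR) and Lum one of 0.36 (adjusted p = 0.384). Both overlapped between the groups after TMM scaling. Of 6 adipocyte markers 2 rose (Lep and Plin1) and 5 were higher at an unadjusted p below 0.05 (median 2.92), with sums of 315 to 428 CPM in WT and 567 to 2485 CPM in TSK, highest in TSK 2. Of 8 adult muscle markers 0 passed, with 4 lower and 1 higher at an unadjusted p below 0.05. None of these markers was at 0 throughout, and their part in the mast cell values was not tested. The basophil list, without Mcpt8, had 2 tested genes, of which 0 passed and 0 were past an unadjusted p of 0.05.

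The upstream sequences of 4 members are shown because 3 of these genes (Cpa3, Cma1 and Mcpt4) had higher levels in TSK at an unadjusted p below 0.05 and the other, Mrgprb2, did not, while all 4 hold a GATAA core. Kit, also higher at an unadjusted p below 0.05, and Hdc hold none in this window and are not shown. GATA factors, GATA2 among them in mast cells, bind sites with this core. Each line gives the 250 bases before the RefSeq start (GRCm38.p6, the mm10 assembly), 5′ to 3′ on the strand of the gene, with GATAA or its reverse complement TTATC in capitals:
Cpa3, chr3:20242182-20242431 (-): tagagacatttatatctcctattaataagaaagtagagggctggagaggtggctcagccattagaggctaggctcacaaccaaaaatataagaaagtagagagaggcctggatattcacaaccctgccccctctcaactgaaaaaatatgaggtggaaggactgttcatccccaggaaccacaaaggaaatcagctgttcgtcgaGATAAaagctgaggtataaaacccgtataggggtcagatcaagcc
Cma1, chr14:55944676-55944925 (-): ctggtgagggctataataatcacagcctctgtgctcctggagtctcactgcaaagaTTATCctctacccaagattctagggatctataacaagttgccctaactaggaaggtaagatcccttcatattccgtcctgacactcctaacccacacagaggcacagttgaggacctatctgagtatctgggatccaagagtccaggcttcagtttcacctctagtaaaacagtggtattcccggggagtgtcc
Mcpt4, chr14:56062311-56062560 (-): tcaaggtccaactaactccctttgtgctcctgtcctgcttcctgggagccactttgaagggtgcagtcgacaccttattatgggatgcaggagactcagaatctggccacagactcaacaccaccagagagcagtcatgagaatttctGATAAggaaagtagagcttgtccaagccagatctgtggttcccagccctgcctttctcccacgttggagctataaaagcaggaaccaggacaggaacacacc
Mrgprb2, chr7:48558087-48558336 (-): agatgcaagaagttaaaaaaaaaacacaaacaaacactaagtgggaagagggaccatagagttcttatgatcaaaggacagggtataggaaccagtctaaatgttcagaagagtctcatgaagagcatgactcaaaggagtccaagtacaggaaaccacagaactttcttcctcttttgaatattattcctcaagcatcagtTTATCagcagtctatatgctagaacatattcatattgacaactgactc
The first base of the match on the gene's strand lay 45 bases upstream of the start in Cpa3, 194 in Cma1, 102 in Mcpt4 and 48 in Mrgprb2. RefSeq entries were matched for 8 of the 10 members, and 6 of the 8 held GATAA on either strand (these 4, Fcer1a and Ms4a2), against 22.6% of 32851 promoters of the same length. The RefSeq start of Ms4a2 was not that of the main transcript used here, and without it the count was 5 of 7. The letters CANNTG, a palindrome bound by basic helix-loop-helix factors such as MITF, were in 5 of the 8, against 66.2% of all, and TATAAA on either strand was in 3 of the 8, against 12.4%. In the sequences printed no matches of different motifs overlapped. A match describes the letters only.

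Beyond the members, 67 other genes of mast cells were listed by role, of which 49 were tested. Of these, 2 passed an adjusted p of 0.05 in edgeR and rose (Fyn and Ltc4s), a share of the 49 near the 2.71% of all tested genes, 0 fell, and an unadjusted p below 0.05 was reached by 19 that were higher, against 12.1% of all tested genes, and 0 that were lower. Their median log2 fold change was 0.34, beside -0.03 over all tested genes. Many of these genes are also used by other cells of skin. Mcpt2, Mcpt8, Ctsg, Mrgprb8, Mrgprx1 and Hrh4 had 0 counts in all 6 libraries.

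Fyn, a kinase of IgE receptor signalling that many cell types make, had 19.8, 16.7 and 16.9 CPM in libraries WT 1 to 3, against 37.9, 47.6 and 53.7 CPM in TSK 1 to 3. The groups stood clearly apart, with a log2 fold change of 1.10 (SE 0.14, adjusted p = 0.00888 by edgeR). It was the 1 gene of the 12 in the IgE receptor signalling group to pass, 6 were higher at an unadjusted p below 0.05, and Fcer1g, the signalling chain of the receptor, had a log2 fold change of 0.33 (SE 0.42, adjusted p = 0.72). Ltc4s encodes leukotriene C4 synthase, a lipid mediator enzyme of mast cells and other myeloid cells. It had 2.39, 1.49 and 1.43 CPM in libraries WT 1 to 3, against 5.99, 9.68 and 11.4 CPM in TSK 1 to 3, so that TSK 1 was again the lowest TSK library. Its log2 fold change was 2.08 (SE 0.27, adjusted p = 0.0108 by edgeR), and 15.2% of its 50-base windows match Gm26542 on the opposite strand. Of the 6 lipid mediator genes it was the 1 that passed, and 4 were higher at an unadjusted p below 0.05 (with Alox5, at a log2 fold change of 1.10 and an adjusted p of 0.0593, Ptgs1, at 0.70 and 0.0599, and Alox5ap, at 0.74 and 0.2). Hpgds, which makes prostaglandin D2, had a log2 fold change of -0.13 (adjusted p = 0.692).

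Among granule cargo genes, Slc18a2, the transporter that loads histamine and serotonin into granules, had 2, 1 and 1 counts in libraries WT 1 to 3, against 1, 17 and 19 counts in TSK 1 to 3. The counts above 2 were confined to TSK 2 and TSK 3, the libraries with the most protease counts. Summed by group, 37 counts against 4 gave a ratio of 8.96 with an exact 95% counting interval of 3.22 to 34.6, which leaves out the spread between mice. The low-count filter removed it, and without the filter its log2 fold change was 2.76 (SE 0.89, adjusted p = 0.108 by edgeR). Srgn, the core protein of the granule proteoglycan, made by many blood cells, had 5.82, 4.03 and 3.09 CPM in libraries WT 1 to 3, against 6.59, 8.77 and 7.43 CPM in TSK 1 to 3 (log2 fold change 0.55, SE 0.22, adjusted p = 0.207). Of the 4 tested genes of this group 0 passed an adjusted p of 0.05 in edgeR, and 2 were higher at an unadjusted p below 0.05.

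The 2 tested relatives of Mrgprb2 had fitted fold changes above 0, and the difference from Mrgprb2 was not tested. Mrgprb1 had 0.528, 0.788 and 0.688 CPM in libraries WT 1 to 3, against 1.05, 1.69 and 1.79 CPM in TSK 1 to 3. The groups did not overlap, and the log2 fold change was 0.85 (SE 0.36, adjusted p = 0.231 by edgeR). Mrgprb3, chosen after its values were seen, had 1.37, 1.28 and 1.76 CPM in libraries WT 1 to 3, against 3.79, 3.54 and 2.54 CPM in TSK 1 to 3, with TSK 1 as the highest library (log2 fold change 0.88, SE 0.27, adjusted p = 0.12 by edgeR).

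Kitl, the gene for stem cell factor, had 23.5, 29.5 and 21.1 CPM in libraries WT 1 to 3, against 35.6, 53.6 and 29.3 CPM in TSK 1 to 3. The groups overlapped slightly, WT 2 lying just above TSK 3, and TSK 2 was the highest, as for Kit (log2 fold change 0.38, SE 0.25, adjusted p = 0.443 by edgeR). Il1rl1, the receptor for interleukin 33, had a log2 fold change of -0.30 (SE 0.30, adjusted p = 0.633). Of the 7 tested transcription factors 0 passed an adjusted p of 0.05 in edgeR, and 2 were higher at an unadjusted p below 0.05. Gata2 had 1.88, 3.94 and 3.57 CPM in libraries WT 1 to 3, against 4.29, 7.54 and 4.56 CPM in TSK 1 to 3 (log2 fold change 0.49, SE 0.36, adjusted p = 0.507 by edgeR). For Mitf, a factor of mast cells and melanocytes, the log2 fold change was 0.02 (SE 0.14, 95% interval -0.29 to 0.34, adjusted p = 0.948).

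**Figure D4:**
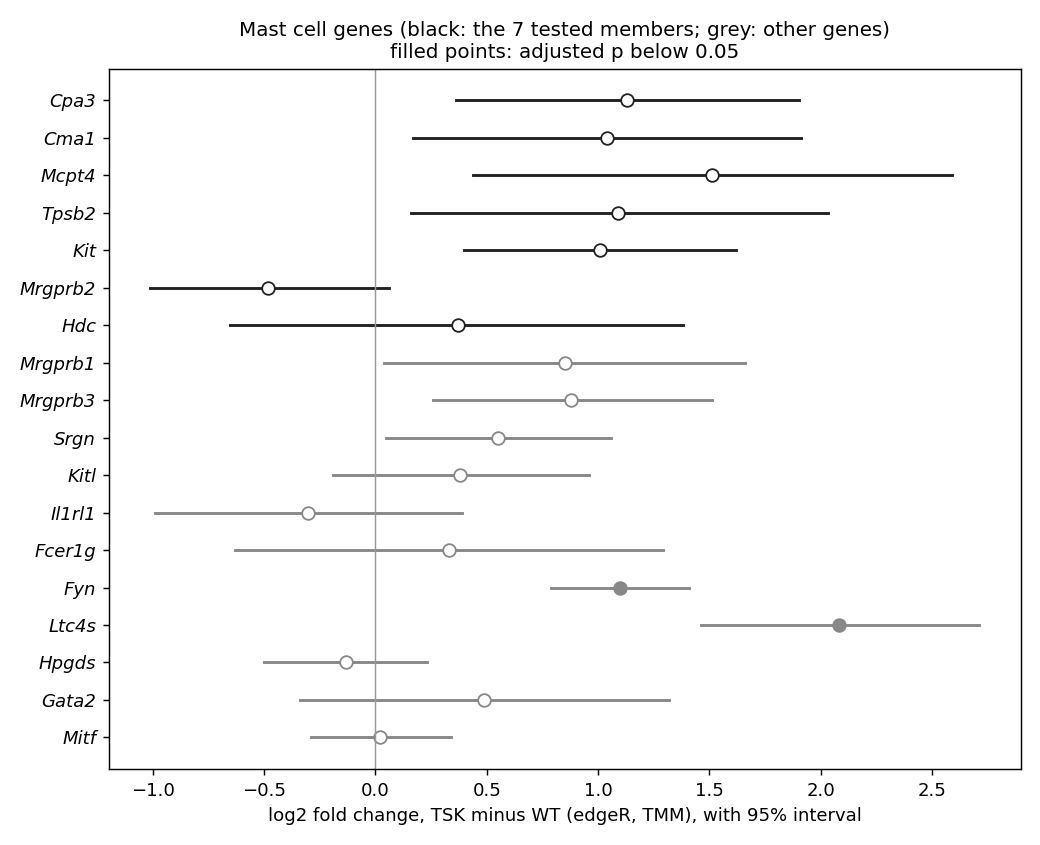
Points give the edgeR log2 fold change, TSK minus WT, with the 95% interval as a line, for the 7 tested members (black) and 11 other named genes (grey), and filled points passed an adjusted p of 0.05. The intervals of Cpa3, Cma1, Mcpt4, Tpsb2 and Kit lie above 0 without passing after adjustment, those of Hdc and Mrgprb2 include 0, and Fyn and Ltc4s are the filled points.

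The mean profile of the 7 tested members over the 6 libraries was compared with 17514 other genes, after TMM scaling and centring of log2 CPM. The nearest were Cep112 (root mean square difference 0.12 on the log2 scale), Acvrl1 (0.127), Flt3l (0.128), 3222401L13Rik (0.128) and Cmklr1 (0.139). Acvrl1, a receptor of the TGF-beta family in endothelium, had 12.8, 15.2 and 14.2 CPM in libraries WT 1 to 3, against 21.9, 30.3 and 36.9 CPM in TSK 1 to 3. Among the members themselves, Cpa3 lay closest to the mean profile (0.157) and Mrgprb2 farthest from it (0.747). With 6 libraries in 2 groups many genes share such a profile, and the likeness is a description.

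Calls on the members depended on the scaling and the tool, and the direction of 1 member, Hdc, depended on TSK 3. Mcpt4 passed an adjusted p of 0.05 in 6 of 16 alternatives (log2 fold change 1.16 to 1.97, adjusted p 0.0231 to 0.276), Kit in 5 (0.73 to 1.29, adjusted p 0.0245 to 0.249), Cpa3 in 3 (0.82 to 1.42, adjusted p 0.0404 to 0.268) and Cma1 in 1 (0.78 to 1.36, adjusted p 0.0485 to 0.397). Tpsb2 stayed above 0 in all 16 (0.78 to 1.42) and passed in 0, with its lowest adjusted p at 0.0615. With scaling by library size alone, the median over all tested genes moved to 0.25, 8.44% of them passed as higher in TSK, and Mcpt4, Cpa3 and Kit passed, with log2 fold changes of 1.82, 1.42 and 1.29. The same 3 members passed with limma-trend on the deposited CPM, where the median over all genes was 0.20 and 8.87% passed as higher at a pseudocount of 1, and 0.25 and 8.82% at 0.1. The share of all genes passing as higher was 2.99% with no low-count filter (Mcpt4 and Kit among them), 3.33% with a replicate block (Mcpt4) and 2.11% without TSK 1 (Cma1).

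**Figure D5:**
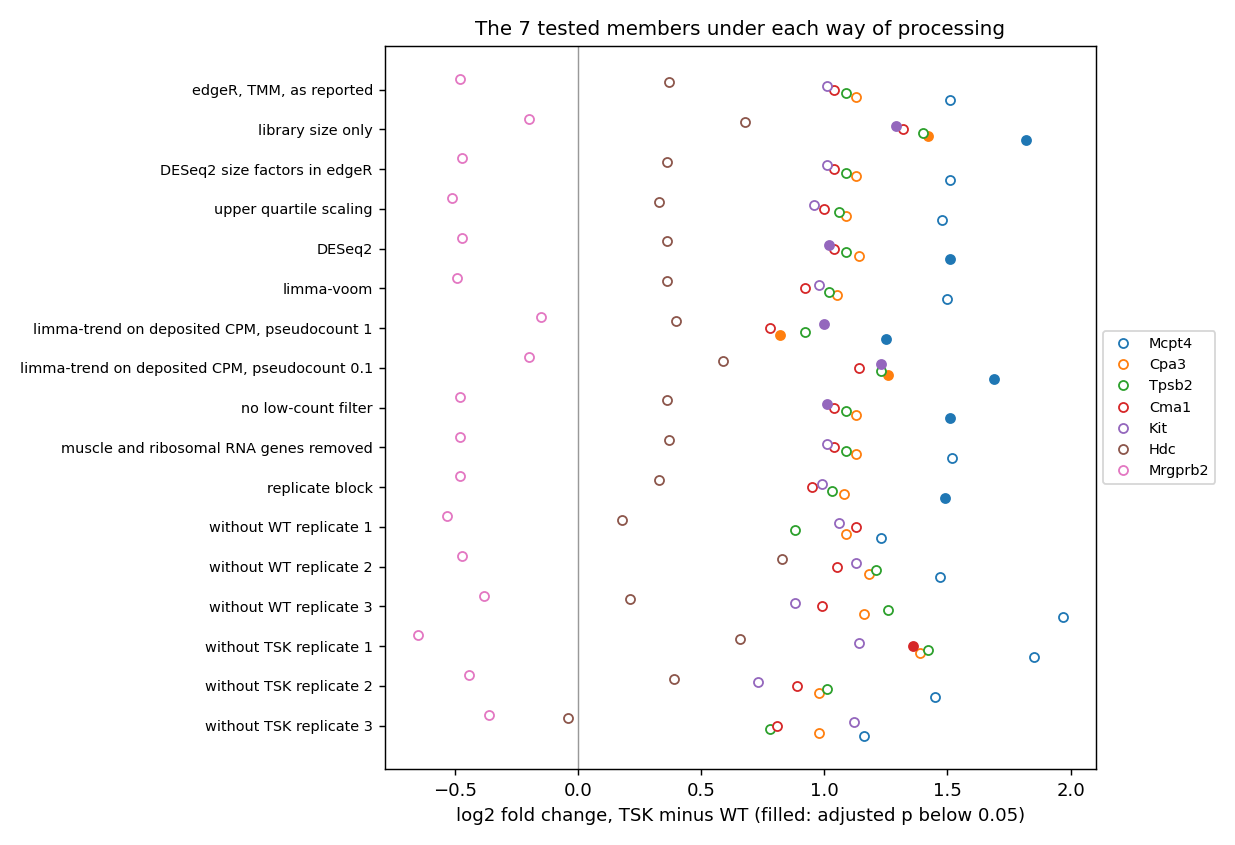
Each row is 1 way of processing, and points give the log2 fold change, TSK minus WT, of the 7 tested members, filled where the adjusted p was below 0.05. Mcpt4, Cpa3, Tpsb2, Cma1 and Kit stay above 0 in every row, Mrgprb2 stays below 0, and Hdc reaches -0.04 without TSK 3.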

How the data were processed

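Dorsal skin RNA of 3 WT and 3 TSK mice was sequenced by the authors as stranded libraries depleted of ribosomal RNA, with single reads of 50 bases. The submitters' processing notes name bcl2fastq 2.19.1.403, STAR, Partek 11.0 and mm10, and the gene annotation is given by the study as Ensembl. Groups were taken from the genotype labels. The authors deposited estimated counts per gene (43.3% to 45.4% of non-zero values whole within 0.001), which were rounded to whole numbers, and CPM values, which were used for levels. Every column belonged to a labelled sample.

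Tests were made across all genes with edgeR 4.0.16 (quasi-likelihood, TMM scaling, filterByExpr, R 4.3.3) and adjusted by the Benjamini-Hochberg method over 19971 genes. Each p-value weighs the difference between the groups against the spread between mice, with information on that spread shared across genes. Alternatives were DESeq2 1.42.0, limma 3.58.1 (voom, and trend on log2(CPM + 1) and log2(CPM + 0.1)), other scalings and no low-count filter. Further alternatives were removal of muscle and ribosomal RNA genes, a replicate block, each library left out and related genes summed. The added pseudocount understates fold changes of low genes relative to scaling by library size alone. The median log2 fold change of the tested members was 0.82 at a pseudocount of 1 and 1.23 at 0.1, beside 1.32 with library size alone. The scripts were tested on simulated data. Positions are from GENCODE M21 (1-based, mm10), upstream sequences from RefSeq (GRCm38.p6).

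All members were named, with Fbn1, 10 mast cell genes fixed by name, any other listed mast cell gene with an adjusted p below 0.05, up to 3 such genes per list of other cells, the genes next to related proteases and the 5 nearest profiles with a mean of at least 1 CPM. Dct, Tyr, Tyrp1, Pmel, Sox10, Cd68, Adgre1, Alox5, Alox5ap, Ptgs1, Mrgprb3 and Tpsg1 fall outside this rule and were named after their values were seen. The same holds for Col1a1, Col1a2, Col3a1, Pdgfra and Lum. Members and lists were chosen with earlier results of these data known.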

Additional observations from a re-analysis of the deposited data

How the results depend on the processing

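The number of members higher in TSK at an adjusted p below 0.05 was 0 in edgeR with TMM and 3 with scaling by library size only (Cpa3, Mcpt4 and Kit), 2 with DESeq2 (Mcpt4 and Kit), 3 with limma-trend on the deposited CPM at a pseudocount of 1 and 3 at 0.1 (Cpa3, Mcpt4 and Kit), and 2 with no low-count filter (Mcpt4 and Kit). With library size only and with limma-trend at 1 and 0.1, the median log2 fold change of all genes was 0.25, 0.20 and 0.25 (-0.03 as reported), and 8.44%, 8.87% and 8.82% of all genes passed as higher. The number of members higher was 0 with DESeq2 size factors in edgeR, upper quartile scaling, limma-voom and the removal of muscle and ribosomal RNA genes. Leaving out each replicate gave 0 to 1 (Cma1 without TSK 1). For all of these the cause was not tested. The count past an adjusted p of 0.01 and a fold of 2.5 was 0 throughout. The median log2 fold change was 0.81 to 1.36 with each replicate left out. Of 118 values of single members, 102 kept their direction and side of the threshold, 15 passed where the reported value did not, and 1 reversed, Hdc at -0.04 (adjusted p = 0.98) without TSK 3, within a range of -0.04 to 0.83 over the replicates left out.

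With the replicate number as a replicate block the count was 1 (Mcpt4, adjusted p = 0.0231). Correlations between same-numbered libraries were 0.0112, 0.167 and -0.0938, so the numbers were not taken to pair the mice. Depth limited Tpsab1, Ms4a2 and Fcer1a, each with at most 5 counts in a library.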

Other observations

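The make-up of the protease counts is given as a description of single libraries. Of the summed counts of Cpa3, Cma1, Mcpt4 and Tpsb2, Cpa3 took 22.1%, 19.1% and 15.7% in libraries WT 1 to 3, against 20.7%, 18.4% and 15.4% in TSK 1 to 3. Mcpt4, the connective tissue chymase, took 20.8%, 25.8% and 37% in libraries WT 1 to 3, against 33.2%, 33.9% and 37.5% in TSK 1 to 3, so that WT 3 stood with the TSK libraries. Tpsb2 took 26% to 33.7% in WT and 27% to 28.5% in TSK. Cma1 took 31.2%, 21.3% and 16.7% in libraries WT 1 to 3, against 19.1%, 20.6% and 18.6% in TSK 1 to 3. Tpsg1, a membrane-anchored tryptase chosen after its values were seen, had 0, 0 and 3 counts in libraries WT 1 to 3, against 1, 7 and 5 counts in TSK 1 to 3, again with TSK 2 and TSK 3 highest. Its 13 counts in TSK against 3 in WT gave a ratio per total count of 4.2, with an exact 95% counting interval of 1.15 to 23 that leaves out the spread between mice, and without the low-count filter its adjusted p was 0.592 by edgeR.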
